A study of Mus musculus with 24 samples.

Results

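The 8 genes Hadha, Hadhb, Echs1, Hadh, Hsd17b10, Acaa2, Eci1 and Decr1 encode enzymes that act in mitochondrial fatty acid oxidation after the acyl-CoA dehydrogenases. They were chosen by name, with earlier results of these data known. All 8 were among the 17215 genes measured above background on the arrays. They were read by 11 of the 46291 array probes that carry a gene symbol. The mice were 8-week-old males on the C57Bl/6J background, their liver RNA was hybridised to 1-colour Agilent arrays, and all were killed at ZT16, 16 h after lights on. The groups were 6 fasted and 6 fed mice with a knockout of Ppara in the liver (LKO) and 5 fasted and 5 fed mice with Ppara in the liver (WT). Fasting lasted 24 h, and fed mice had food freely. All mice were kept on the same chow from birth. The labels name neither the Cre driver of the knockout nor the deleted part of the gene.

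In each turn of beta-oxidation an acyl-CoA dehydrogenase makes an enoyl-CoA, which is then hydrated, oxidised again and cleaved by a thiolase to release acetyl-CoA. For long chains these later steps are carried out by the trifunctional protein of the inner membrane, built from the products of Hadha and Hadhb, and for shorter chains by separate matrix enzymes. Eci1 and Decr1 encode auxiliary enzymes that bring the products of unsaturated fatty acids into the same spiral. PPARalpha, the nuclear receptor encoded by Ppara, is known to be activated by fatty acids in the fasted liver and to drive genes of fatty acid oxidation.

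All levels are log2 signals relative to the 75th percentile of the array, so 1 unit is a doubling, and levels of different genes are not set against each other because each probe binds its own target with its own efficiency. Ppara itself was measured by a probe whose level was lower in LKO than in WT livers, with a log2 difference of -0.88 (SE 0.14, limma adjusted p = 4.6e-05) when fasted and -0.67 (SE 0.14, limma adjusted p = 0.0061) when fed. A second Ppara probe gave -1.01 (limma adjusted p = 7.7e-06) when fasted and -0.85 (limma adjusted p = 0.00065) when fed. With fasting in LKO livers Ppara rose by 0.44 (limma adjusted p = 0.0091) on the first probe and 0.53 (limma adjusted p = 0.0022) on the second, against 0.64 and 0.69 in WT livers. Whether either probe lies in the deleted part is not stated. All 11 probes of the 8 genes were well above background in all 22 animals, and none was saturated. Fed LKO replicate 3 stood apart from the other animals on the third principal component of all genes (5.46% of the variance), with a score of 57.3 where its 5 group mates scored -16.8 to -4.61. It was also the lowest fed LKO animal for 7 of the 8 genes, and values without it are given where they differ in call.

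Regions that bear on the gene pair and on the largest fasting change among the 8 genes are shown here, taken from RefSeq on build GRCm38.p6. Hadha and Hadhb lie head to head on chromosome 5, Hadha on the minus strand and Hadhb on the plus strand, and the 272 bases between their annotated starts, chr5:30154981-30155252 on the plus strand, hold the upstream sequence of both subunits. The other stretch is the 250 bases before the start of Hsd17b10, chrX:152001646-152001895 on the plus strand. Of the 8 genes, Hsd17b10 had the largest change with fasting in WT livers. Capitals mark matches, on either strand, of GGGCGGG, which Sp1 family factors bind, and in the Hsd17b10 stretch also of CCAAT, the NF-Y box.
Hadha to Hadhb interval: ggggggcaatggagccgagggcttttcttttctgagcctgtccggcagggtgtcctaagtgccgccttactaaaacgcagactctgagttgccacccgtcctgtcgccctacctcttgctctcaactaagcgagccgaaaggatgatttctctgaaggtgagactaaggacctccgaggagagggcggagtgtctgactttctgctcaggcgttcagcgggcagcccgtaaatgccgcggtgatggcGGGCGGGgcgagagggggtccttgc
Hsd17b10 upstream: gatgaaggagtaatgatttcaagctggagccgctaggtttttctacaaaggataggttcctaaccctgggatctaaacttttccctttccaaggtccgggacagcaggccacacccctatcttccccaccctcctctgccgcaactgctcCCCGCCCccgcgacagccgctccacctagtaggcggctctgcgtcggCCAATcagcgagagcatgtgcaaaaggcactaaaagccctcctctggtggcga

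Promoter windows from 250 bases before to 50 after the annotated start were given for 6 of the 8 genes, all but Acaa2 and Decr1. Searched on both strands, GGGCGGG stood in 5 of the 6 windows (all but Hadha's), against 25.6% of 32851 mouse promoter windows of the same length. The Hadhb match, 25 bases before its start, lies in the interval shared with Hadha, and Hadha's window ends within that match. The letters CCAAT stood in the windows of Hadh and Hsd17b10, against 37.4% of all windows, and TATAAA in none of the 6, against 13.6%. The nuclear receptor element AGGTCA stood in 1 of the 6, 83 bases before the start of Echs1, against 16.3% of all windows, and every match of AGGTCANAGGTCA also holds the shorter element. AGGTCANAGGTCA, the spaced repeat to which PPARalpha binds with its partner RXR, stood in none of the 6 and in 0.0396% of all windows, which says only that these exact letters are not in these windows.

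With a 24 h fast in WT livers, all 8 genes rose, and the median log2 change was 0.89 (range 0.23 to 1.66), against 0.01 over all 17215 genes. In the authors' deposited table Acaa2 lost its call and 7 of 8 were called, and the further Echs1 probe of the first exon did not pass the test. Of all genes, 23.1% were higher at a limma adjusted p below 0.05. The fasted and fed WT animals did not overlap for any of the 8, which held in the higher direction for 17.7% of all genes. In LKO livers the same fast gave a median log2 change of -0.09 (range -0.46 to 0.29), against -0.04 over all genes. There Hadhb rose, Hadh and Eci1 fell, and 5 genes did not pass the test. Of all genes in the LKO livers, 23.0% were higher and 26.7% lower. On its brightest probe Hadhb was also the 1 member whose fasted LKO animals all lay above the fed ones, as did 13.2% of all genes.

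Between genotypes, all 8 genes were lower in LKO than in WT livers when fasted, with a median log2 difference of -1.41 (range -1.95 to -0.33), against -0.03 over all genes. Of all genes, 21.4% were lower in that comparison by the same limma call. No fasted LKO animal reached a fasted WT animal for any of the 8, which was so in the lower direction for 14.8% of all genes. When fed, 5 of the 8 were lower in LKO livers (Hadha, Hadhb, Acaa2, Eci1 and Decr1), with a median over all 8 of -0.40 against 0.01 over all genes. In that comparison 2.25% of all genes were lower, and the animals of both genotypes lay apart in that direction for the same 5 members and for 2.18% of all genes. The fasting change in LKO minus that in WT, the interaction term, passed the test below 0 for all 8, with a median of -1.01 (range -1.57 to -0.34), against -0.04 and 11.1% of all genes; in the authors' deposited table Echs1 lost its call and 7 of 8 passed. The fasting changes share their animals with the genotype differences, so these counts are views of the same 22 mice.

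**Figure D1:**
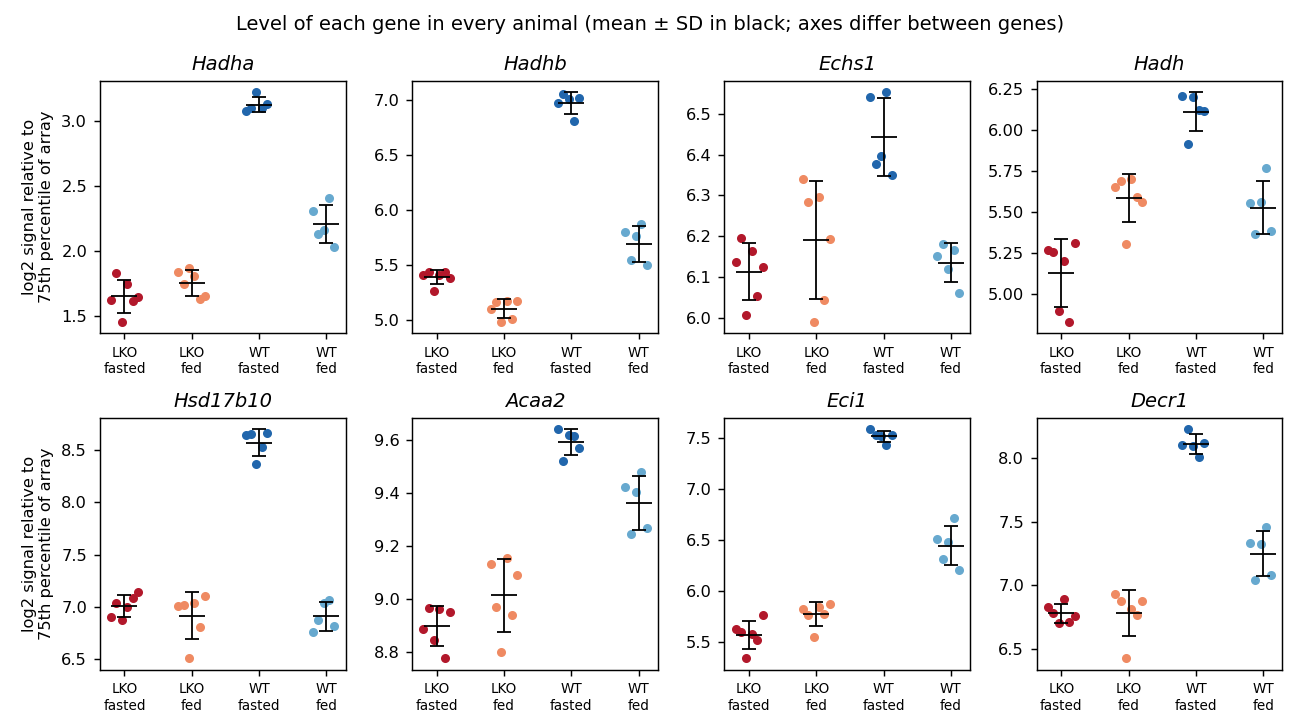
Level of each gene in every animal, as log2 signal relative to the array's 75th percentile, with a panel per gene, groups along the horizontal axis, points for animals and black bars for mean ± SD (n = 6 per LKO group, 5 per WT group); vertical axes differ between panels. In all 8 panels the fasted WT animals lie above every animal of both LKO groups and of the fed WT group, while the order of the other groups differs between genes.

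The trifunctional protein has an alpha subunit, encoded by Hadha, with the hydratase and long-chain hydroxyacyl-CoA dehydrogenase activities, and a beta subunit, encoded by Hadhb, with the thiolase activity. Hadha had levels of 1.45 to 1.83 (median 1.63) in fasted LKO and 1.63 to 1.87 (median 1.77) in fed LKO livers, against 3.08, 3.10, 3.22, 3.11 and 3.14 in fasted WT and 2.30, 2.13, 2.16, 2.41 and 2.03 in fed WT livers. The LKO groups overlapped each other and lay below every WT animal. Hadha was 2.79-fold lower in LKO than in WT livers when fasted, a log2 difference of -1.48 (SE 0.07, limma adjusted p = 2.9e-12), and 1.37-fold lower when fed, at -0.45 (SE 0.07, limma adjusted p = 0.0005). With fasting the log2 change was -0.11 (SE 0.07, limma adjusted p = 0.21) in LKO and 0.92 (SE 0.07, limma adjusted p = 8.6e-09) in WT livers.

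Hadhb had levels of 5.26 to 5.44 (median 5.41) in fasted LKO and 4.99 to 5.17 (median 5.14) in fed LKO livers, against 6.98, 7.05, 7.01, 6.81 and 7.01 in fasted WT and 5.80, 5.54, 5.76, 5.87 and 5.50 in fed WT livers. On this probe, the brightest of the gene, no group overlapped another, so Hadhb was the member whose 4 groups were all apart. On both further probes of Hadhb the fasted and fed LKO groups overlapped. The gene rose with fasting in both genotypes, by a log2 change of 0.29 (SE 0.06, limma adjusted p = 0.00084) in LKO and 1.28 (SE 0.07, limma adjusted p = 6.6e-11) in WT livers. It was 2.99-fold lower in LKO than in WT livers when fasted (limma adjusted p = 4.6e-13) and 1.51-fold lower when fed (limma adjusted p = 7.5e-06). In LKO livers the 95% interval of the fasting change was 0.15 to 0.42 for Hadhb and -0.25 to 0.04 for Hadha, its partner across the shared interval printed above. The difference between the subunits was not tested.

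All 3 probes of Hadhb passed the test for the fasting rise in WT livers and for the lower level in fasted LKO livers. A probe in the coding sequence, at chr5:30503442-30503500 of build mm9 on the plus strand, is the one of the 3 Hadhb probes shown, because it reads the coding part of the messenger itself.
Hadhb coding probe: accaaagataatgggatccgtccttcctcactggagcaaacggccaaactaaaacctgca
It gave log2 fasting changes of 0.27 (SE 0.08, limma adjusted p = 0.011) in LKO and 1.37 (SE 0.09, limma adjusted p = 7.2e-10) in WT livers. The remaining probe, annotated to another transcript at chr5:30494754-30494813 of mm9, gave 0.12 (SE 0.11, limma adjusted p = 0.38) in LKO and 1.33 (SE 0.12, limma adjusted p = 4.0e-08) in WT livers. In fed livers it did not pass the test between genotypes, at -0.33 (SE 0.12, limma adjusted p = 0.12), while the other two did.

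The matrix enzymes for shorter chains are the hydratase encoded by Echs1, the hydroxyacyl-CoA dehydrogenase encoded by Hadh and the thiolase encoded by Acaa2. Echs1 ranged from 6.01 to 6.20 in fasted LKO and 5.99 to 6.34 in fed LKO livers, against 6.35 to 6.55 in fasted WT and 6.06 to 6.18 in fed WT livers. On this probe, the brighter of the gene, the fasted WT animals lay just above all others, and the other groups overlapped. Its log2 change with fasting was -0.08 (SE 0.06, limma adjusted p = 0.31) in LKO and 0.31 (SE 0.07, limma adjusted p = 0.00073) in WT livers. Between genotypes it was 1.26-fold lower in LKO when fasted (limma adjusted p = 0.00034), a log2 difference of -0.33 that was -0.17 (limma adjusted p = 0.037) in the authors' deposited table and -0.21 (limma adjusted p = 0.011) under quantile normalization. The interaction term of -0.39 (SE 0.09, limma adjusted p = 0.005) lost its call in that table, at -0.23 (limma adjusted p = 0.081). When fed the log2 difference between genotypes was 0.06 (95% interval -0.08 to 0.19, limma adjusted p = 0.75).

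A second Echs1 probe lies in the first exon, at chr7:147302234-147302293 of mm9 on the minus strand, and begins at the start codon, in capitals. It is shown because its calls differed from those of the brighter probe near the end of the transcript.
Echs1 first-exon probe: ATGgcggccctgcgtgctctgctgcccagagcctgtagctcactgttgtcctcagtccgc
With fasting this probe gave -0.29 (SE 0.07, limma adjusted p = 0.0012) in LKO and 0.05 (SE 0.07, limma adjusted p = 0.60) in WT livers, so its fasting change passed the test in LKO livers and that of the brighter probe in WT livers. The order of the groups also differed: fed LKO livers had the highest mean, 2.31 (2.08 to 2.52), overlapping fasted WT livers at 2.24 (2.19 to 2.33). Between genotypes when fasted both probes passed the test below 0, at -0.22 (SE 0.07) for the first-exon probe and -0.33 (SE 0.06) for the other. The rise of Echs1 in fasted WT livers thus rests on 1 of its 2 probes, and with their mean it was 0.18 (limma adjusted p = 0.030). In RefSeq on GRCm38.p6 the gene overlaps its neighbour Paox by 687 bases, and whether either probe also reads Paox transcripts was not tested.

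**Figure D2:**
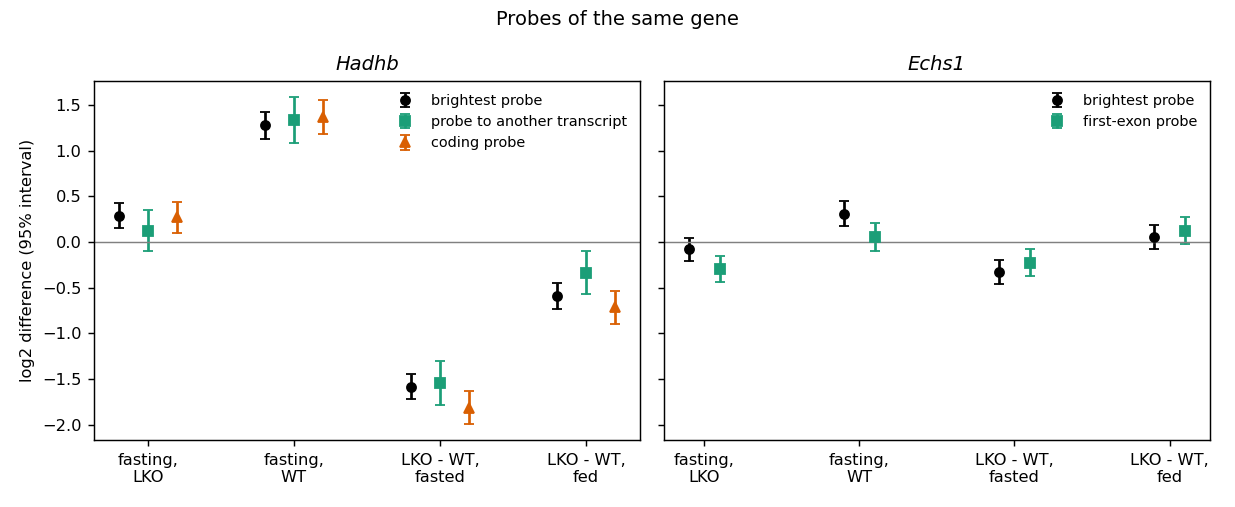
Log2 differences (vertical axis) with 95% intervals for each probe of Hadhb (left) and Echs1 (right) in 4 comparisons; LKO - WT is LKO minus WT, fasting is fasted minus fed, and n = 6 per LKO group and 5 per WT group. The 3 Hadhb probes lie between 1.28 and 1.37 with fasting in WT livers, while the Echs1 probes lie at 0.31 and 0.05.

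Hadh had levels of 4.83 to 5.31 (median 5.23) in fasted LKO and 5.31 to 5.70 (median 5.62) in fed LKO livers, against 6.21, 5.92, 6.20, 6.12 and 6.11 in fasted WT and 5.55, 5.36, 5.56, 5.77 and 5.38 in fed WT livers. The fasted WT animals were the highest, the fed groups overlapped, and the fasted LKO group was the lowest, overlapping the fed LKO group through fed LKO replicate 3 and fasted LKO replicate 6. The gene moved in opposite directions with fasting, a log2 change of -0.46 (SE 0.09, limma adjusted p = 0.0004) in LKO and 0.59 (SE 0.10, limma adjusted p = 0.0001) in WT livers. When fasted it was 1.98-fold lower in LKO than in WT livers (limma adjusted p = 1.6e-07). When fed the log2 difference was 0.06 (95% interval -0.15 to 0.26, limma adjusted p = 0.85).

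Acaa2 ranged from 8.78 to 8.97 in fasted LKO and 8.80 to 9.15 in fed LKO livers, against 9.52 to 9.64 in fasted WT and 9.25 to 9.48 in fed WT livers. All LKO animals lay below all WT animals, and the log2 difference between genotypes was -0.69 (SE 0.06, limma adjusted p = 4.4e-08) when fasted and -0.35 (SE 0.06, limma adjusted p = 0.0018) when fed. With fasting it changed by -0.12 (SE 0.06, limma adjusted p = 0.12) in LKO and by 0.23 (SE 0.07, limma adjusted p = 0.0078) in WT livers. The rise in WT livers was not called in the authors' deposited log2 table, where limma gave 0.06 (SE 0.06, adjusted p = 0.42). In LKO livers the fall passed the test without fed LKO replicate 3, at -0.16 (limma adjusted p = 0.021).

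Hsd17b10 encodes a mitochondrial dehydrogenase that oxidises short and branched hydroxyacyl-CoA esters, among them those from isoleucine, and that is also a subunit of mitochondrial RNase P, which trims transfer RNA precursors. It had levels of 6.88 to 7.14 (median 7.02) in fasted LKO and 6.51 to 7.11 (median 7.01) in fed LKO livers, against 8.64, 8.66, 8.36, 8.53 and 8.66 in fasted WT and 6.75, 6.88, 7.04, 7.07 and 6.81 in fed WT livers. The fasted WT group stood alone, and the other 3 groups overlapped one another. Its rise with fasting in WT livers was the largest of the 8, 3.16-fold or 1.66 on the log2 scale (SE 0.10, limma adjusted p = 1.6e-10), against 0.09 (95% interval -0.10 to 0.28, limma adjusted p = 0.42) in LKO livers. When fasted it was 2.96-fold lower in LKO than in WT livers (limma adjusted p = 1.1e-10). When fed the log2 difference between genotypes was 0.00 (95% interval -0.19 to 0.20, limma adjusted p = 0.99).

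The genes of the other RNase P subunits were read as Trmt10c, the methyltransferase partner, and 1110008L16Rik, the array's name for Prorp, the nuclease. With fasting 1110008L16Rik rose in both genotypes, by 0.32 (limma adjusted p = 0.030) in LKO and 0.39 (limma adjusted p = 0.019) in WT livers, and Trmt10c passed the test in neither, at 0.17 in LKO and -0.02 in WT livers. Elac2, which cuts the other end of the transfer RNA precursor, rose by 0.20 in LKO and 0.27 in WT livers. None of these 3 passed the test in either genotype comparison or for the interaction term, where Hsd17b10 stood at -1.57 (SE 0.13, limma adjusted p = 3.4e-07).

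Eci1 encodes the enoyl-CoA isomerase that shifts the unsaturated bond to the position used by the hydratase. Its probe spans a junction of exons, chr17:24574515-24575912 of mm9 on the plus strand, and is shown because it reads spliced messenger.
Eci1 junction probe: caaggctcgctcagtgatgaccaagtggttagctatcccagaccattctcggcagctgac
Its levels were 5.34 to 5.76 (median 5.59) in fasted LKO and 5.55 to 5.87 (median 5.80) in fed LKO livers, against 7.59, 7.53, 7.52, 7.44 and 7.53 in fasted WT and 6.51, 6.31, 6.48, 6.71 and 6.21 in fed WT livers. Both LKO groups lay below both WT groups. By the brightest probe of each gene, Eci1 had the largest genotype differences of the 8 in either feeding state. The Hadhb coding probe gave a larger log2 difference when fed, -0.71 against -0.67 for Eci1. In LKO livers Eci1 was 3.87-fold lower when fasted (limma adjusted p = 4.4e-13) and 1.60-fold lower when fed (limma adjusted p = 2.1e-05). With fasting it changed by -0.20 (SE 0.08, limma adjusted p = 0.038) in LKO and by 1.08 (SE 0.09, limma adjusted p = 7.9e-09) in WT livers. The fall in LKO livers was lost under quantile normalization, at -0.12 (limma adjusted p = 0.21), in the authors' deposited table, at -0.11 (limma adjusted p = 0.23), and on leaving out any of 8 LKO animals 1 at a time.

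Decr1 encodes the dienoyl-CoA reductase, which acts on polyunsaturated chains. It ranged from 6.70 to 6.89 in fasted LKO and 6.42 to 6.93 in fed LKO livers, against 8.01 to 8.23 in fasted WT and 7.04 to 7.46 in fed WT livers. The LKO groups overlapped and lay below both WT groups. It was 2.52-fold lower in LKO than in WT livers when fasted (limma adjusted p = 2.4e-10) and 1.38-fold lower when fed (limma adjusted p = 0.0018). With fasting its log2 change was 0.00 (95% interval -0.17 to 0.17, limma adjusted p = 0.999) in LKO and 0.86 (SE 0.09, limma adjusted p = 1.8e-07) in WT livers.

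**Figure D3:**
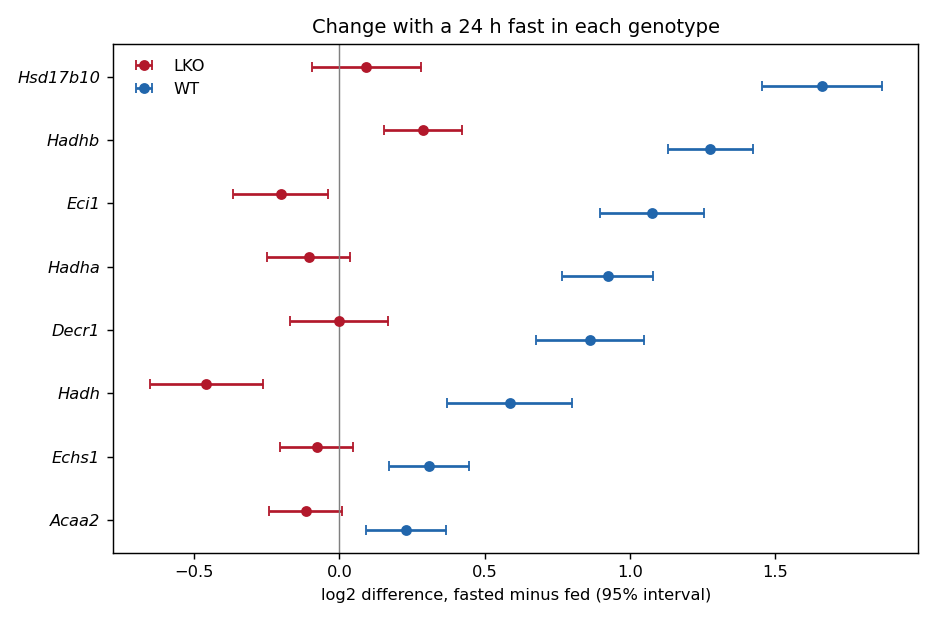
Log2 change with a 24 h fast (fasted minus fed, horizontal axis) of each gene in LKO and WT livers, points with 95% intervals from limma, ordered by the change in WT livers (n = 6 per LKO group, 5 per WT group). WT changes run from 0.23 for Acaa2 to 1.66 for Hsd17b10, and LKO changes from -0.46 for Hadh to 0.29 for Hadhb.

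In the fed state, the genes that differed between genotypes were Hadha, Hadhb, Acaa2, Eci1 and Decr1, and the difference did not pass the test for Echs1, Hadh and Hsd17b10. By the brightest probe of each gene, the fed log2 differences ran from -0.67 for Eci1 to 0.06 for Hadh. Hsd17b10 and Hadhb had nearly the same fasted genotype difference, -1.56 and -1.58, and fed differences of 0.00 and -0.59, with 95% intervals of -0.19 to 0.20 and -0.73 to -0.45. The Hadhb values depend on the probe: the coding probe gave -1.81 fasted and -0.71 fed. The probe annotated to another transcript gave -1.54 fasted and -0.33 fed, where it did not pass the test. The difference between Hsd17b10 and Hadhb was not tested. Among the 8, the pair with the most alike group means was Hadha and Decr1, whose 4 centred group means differed by 0.05 (root mean square, log2), and the least alike pair was Echs1 and Eci1 at 0.65.

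**Figure D4:**
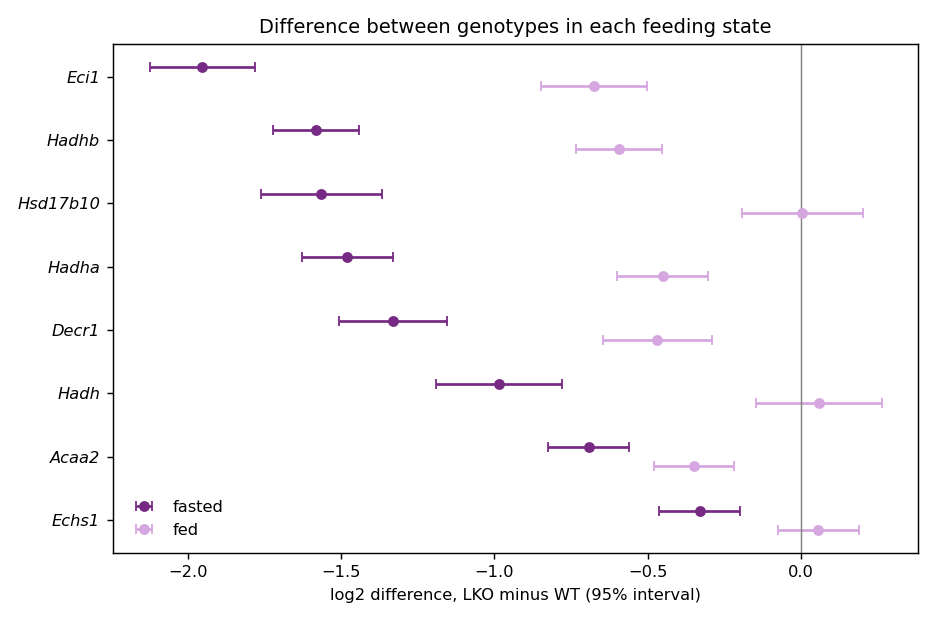
Log2 difference between genotypes (LKO minus WT, horizontal axis) of each gene in fasted and fed livers, points with 95% intervals from limma, ordered by the fasted difference (n = 6 per LKO group, 5 per WT group). Fasted differences run from -1.95 for Eci1 to -0.33 for Echs1, and the fed intervals of Echs1, Hadh and Hsd17b10 include 0.

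Among 14352 other named genes, the gene whose 4 centred group means were nearest to a member was found by the root mean square difference over the 4 groups, which uses group means and no spread. The 3 nearest genes are named for each member, in order. For Hadha these were Rogdi (0.03), Fam195a (0.05) and Cpox (0.05), and for Decr1 they were Prox2 (0.02), Fam195a (0.03) and Glrx (0.04). For Hadhb they were Dnmbp (0.08), Trpm4 (0.09) and Pex11a (0.09), and for Eci1 they were Fitm2 (0.02), Acot8 (0.04) and Mmd (0.08). For Hsd17b10 they were Gadd45g (0.05), Abhd1 (0.07) and Mterf2 (0.09). For Hadh they were Rcan2 (0.03), Nppa (0.04) and Kcnj15 (0.04), and for Acaa2 they were Nr2f2 (0.02), Mertk (0.03) and Ccdc18 (0.03). Echs1, whose changes were small, lay nearest to Mmachc, Olfr681 and Olfr1346 (each 0.01). Decr1, at rank 5 for Hadha, was the 1 member found among the 5 nearest genes of another.

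The enzymes that act before the 8 were taken as a list of 11 genes for fatty acid activation, entry into mitochondria and the first dehydrogenation. All 11 were lower in LKO than in WT livers when fasted, with a median of -1.23, and 8 of the 11 when fed. Over all genes, 21.4% were lower when fasted and 2.25% when fed. Etfdh, which passes electrons from the dehydrogenases to ubiquinone, differed by -2.43 when fasted (limma adjusted p = 4.2e-14) and by -1.26 when fed (limma adjusted p = 6.2e-09). Cpt2, the inner carnitine palmitoyltransferase, differed by -2.01 when fasted and -0.97 when fed, and Acsl1, a long-chain acyl-CoA synthetase, by -1.54 when fasted and by -0.27 when fed, where it did not pass the test. For the interaction term 9 of the 11 passed the test below 0, as did all 8 of the later steps and 11.1% of all genes. The 2 that did not pass rose with fasting in both genotypes, Cpt1a by 1.66 in LKO and 1.55 in WT livers. Acadl rose by 1.18 in LKO and 1.30 in WT livers. With fasting in LKO livers 4 of the 11 were higher and 2 lower, against 23.0% and 26.7% of all genes.

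The peroxisome runs a similar spiral with its own enzymes, and all 10 genes of that list were lower in fasted LKO livers, with a median of -1.46. When fed, 5 of the 10 were lower. Over all genes, 21.4% were lower when fasted and 2.25% when fed. For the interaction term 9 of the 10 passed the test below 0, against 11.1% of all genes. The exception was Scp2, which differed by -0.26 when fasted. Ehhadh, the peroxisomal bifunctional hydratase and dehydrogenase, differed by -3.78 when fasted (limma adjusted p = 1.6e-14) and by 0.01 when fed (limma adjusted p = 0.98). Hsd17b4, the other peroxisomal bifunctional enzyme, differed by -1.97 when fasted (limma adjusted p = 6.6e-14) and by -0.87 when fed (limma adjusted p = 1.4e-07). Acaa1b, a peroxisomal thiolase, differed by -2.59 when fasted and by -0.67 when fed, where it did not pass the test (limma adjusted p = 0.054).

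Acetyl-CoA and propionyl-CoA also come from branched-chain amino acids, whose breakdown shares enzyme types with beta-oxidation. Of 17 genes of that list 11 were lower in fasted LKO livers and 6 did not pass, with a median of -0.28. Acat1, the mitochondrial acetoacetyl-CoA thiolase, differed by -1.44 (limma adjusted p = 2.4e-11), Hibch by -0.65 and Pcca by -0.61. Of 17 genes of the tricarboxylic acid cycle 12 were lower when fasted, with a median of -0.36, among them Dlst at -0.97 and Sucla2 at -0.84. Of 17 genes of mitochondrial import, chaperones, channels and DNA upkeep 7 were lower and 1 higher, with a median of -0.14, and Phb, a prohibitin, differed by -0.49 (limma adjusted p = 3.7e-07). In fed livers 0 of the 17 import and upkeep genes passed the test in either direction, 1 of the 17 branched-chain genes was higher, and 1 of the 17 tricarboxylic acid cycle genes was lower. The list values are counts, and no test set a list against other genes. Over all genes, 21.4% were lower in fasted and 2.25% in fed LKO livers.

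**Figure D5:**
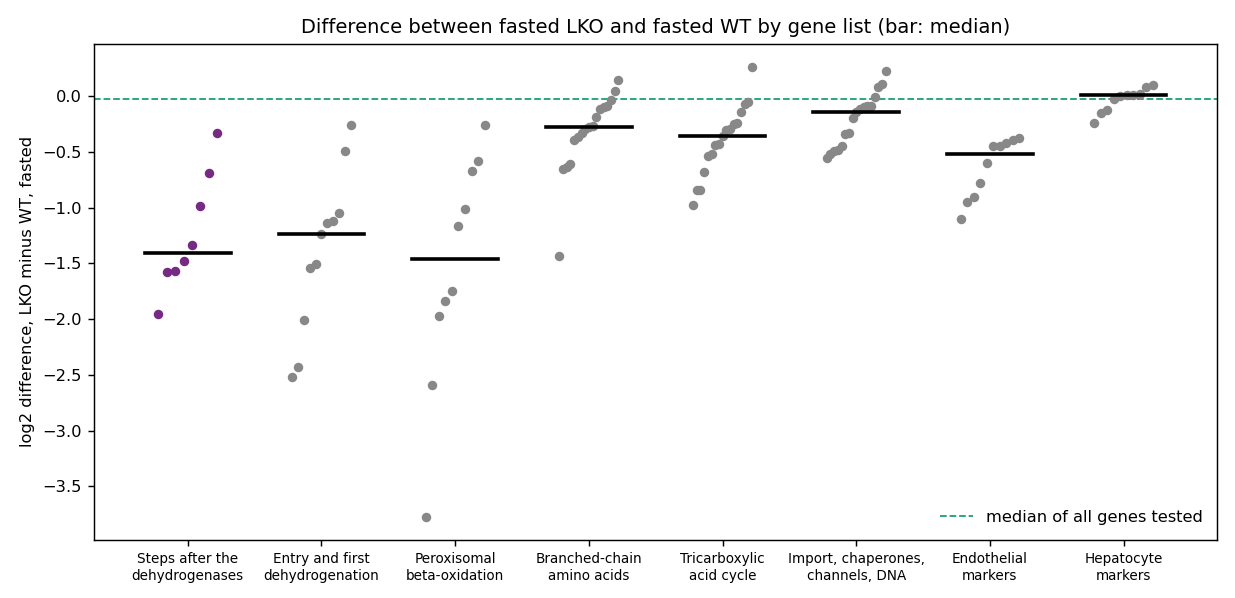
Log2 difference between fasted LKO and fasted WT livers (vertical axis) for each gene (points) of the 8 later steps and of other lists, with a bar at each list's median and a dashed line at the median of all genes tested (-0.03). The medians of the 8 later steps (-1.41), of entry and first dehydrogenation (-1.23) and of peroxisomal beta-oxidation (-1.46) lie below those of the other lists drawn.

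In whole liver RNA, fewer cells of a type and less RNA per cell cannot be told apart. Of 10 hepatocyte markers 1 was lower and 0 higher in fasted LKO against fasted WT livers, with a median of 0.01, and their summed level, in multiples of the 75th percentile, was 6572 to 6998 in fasted LKO, 6205 to 7020 in fed LKO, 6642 to 7025 in fasted WT and 6360 to 7052 in fed WT livers. Over all genes, 21.4% were lower in fasted LKO livers and 11.1% passed the test below 0 for the interaction term. Endothelial markers moved with the later steps: 10 of 10 were lower in fasted LKO livers, with a median of -0.52, and 8 of 10 passed the test below 0 for the interaction term. Their summed level was 46.0 to 57.0 in fasted LKO, 55.0 to 78.8 in fed LKO, 67.5 to 100.5 in fasted WT and 59.3 to 75.3 in fed WT livers. The markers with the largest interaction terms were Tek at -0.96, Clec4g at -0.94 and Oit3 at -0.87, and all 10 were well above background in all animals. The part of endothelial cells in the result was not tested. In fed livers 0 of the 10 endothelial markers passed the test between genotypes, with a median of -0.02.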

How the data were processed

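Liver RNA of 22 mice was measured on 24 arrays. The series description states 24 mice, 6 in each group, whereas the labels give 22 animals, with 1 fasted and 1 fed WT mouse hybridised on 2 arrays each, and the labels were followed. Per the file headers, the deposited scanner files hold fluorescence intensity values from Agilent Feature Extraction 10.10.1.1 with background already subtracted. A second deposited table holds the authors' log2 values for 31356 probes, made with limma per the submitters' processing notes, with column medians of 8.16 to 8.17, in which both columns of a repeated animal hold the same values; its normalization is not given in the sources used here, and it served as an alternative.

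Outlier-flagged spots and control spots were left out, and each array's 75th percentile was subtracted from its log2 processed signals (percentile 309.7 to 412.6 intensity units, with 50.0% to 58.8% of probes well above background). Arrays of 1 animal were averaged. The 22 pairs of repeat readings of the members' probes differed by a median of 0.059 and at most 0.18 (log2). Probes with a symbol were kept when well above background in at least 5 of 22 animals (28138 of 46291), and a gene was its kept probe with the highest mean. Limma 3.58.1 in R 4.3.3 fitted 1 mean per group to all 22 animals, with moderated tests, Benjamini-Hochberg adjustment over 17215 genes (over all kept probes for further probes of a gene) and calls at an adjusted p below 0.05; the procedure was tested on simulated data. Each of 3 slides held 2 arrays of every group. The number of animals limits the precision.

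The 8 genes and all 13 gene lists were chosen with earlier results of these data known. Named genes are the 8 members, Ppara, the 5 genes nearest each member and up to 3 genes per list. Those 3 had the largest interaction term among called genes, or otherwise the largest change with fasting in WT livers. Some list genes outside this rule are also named, and some genes that the rule allows are left unnamed. Symbols follow the array design. Of the 11 probes of the members, 10 had a transcript found in RefSeq, and all 10 carried the same symbol there. Prorp was matched through its RefSeq synonym. Alternatives were normexp background correction, quantile normalization, the deposited table, no filter on dim probes, the mean of a gene's probes, slide or replicate number as a block, values within each slide, and leaving out each animal.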

Additional observations from a re-analysis of the deposited data

Results flagged for a closer look

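In 4 of 32 groups of animals screened (8 genes in 4 groups), 1 animal lay beyond Dixon's 95% critical value, where chance gives about 1 in 20. Fed LKO replicate 3 was the animal in 3 of them: its level of Hadh was 5.31 and the next fed LKO animal had 5.56, its level of Eci1 was 5.55 with the next at 5.77, and its level of Decr1 was 6.42 with the next at 6.76. The other was fasted LKO replicate 3, whose level of Hadhb was 5.26 with the next fasted LKO animal at 5.38. Without fed LKO replicate 3 the 40 member tests kept their calls except the fasting change of Acaa2 in LKO livers, which passed at -0.16.

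The fasting response differed between genotypes for each of the 8 genes by the interaction term (LKO change minus WT change), which Echs1 did not pass in the authors' deposited table. It was -1.57 for Hsd17b10, -1.28 for Eci1, -1.04 for Hadh, -1.03 for Hadha, -0.99 for Hadhb, -0.86 for Decr1, -0.39 for Echs1 and -0.34 for Acaa2, with limma adjusted p between 3.4e-07 for Hsd17b10 and 0.011 for Acaa2. Below 0, the term passed the test for 11.1% of all genes.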

How the results depend on the processing

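Of 1160 member values under the alternatives that carry a test, 18 changed their call and 0 reversed. Normexp background correction, the slide block and the replicate block changed no member call. With the replicate block the interaction term of Eci1 was -1.28 (SE 0.11, limma adjusted p = 4.7e-06), as without it; over 31 pairs of same-numbered animals the correlation of deviations was -0.18 to 0.18, and 5 exceeded 0.1, so the numbers were not taken to pair animals. The calls that changed concern small changes. In LKO livers the count of members higher with fasting was 2 in the deposited table, where Hsd17b10 passed at 0.22 (limma adjusted p = 0.029), and the count lower was 1 with no filter on dim probes (Eci1 at -0.20, limma adjusted p = 0.070); leaving out 1 animal at a time gave 1 to 3 lower. In 8 of these, Eci1 was lost, for fasted LKO replicates 3, 4 and 5 and fed LKO replicates 1, 2, 4, 5 and 6. Acaa2 passed in fasted LKO livers under quantile normalization (-0.19) and in the deposited table (-0.22), Echs1 did with the mean of its probes (-0.19), and the interaction term of Echs1 was lost in the deposited table (-0.23, limma adjusted p = 0.081). The deposited table also lost the rise of Acaa2 in fasted WT livers. The cause of these shifts was not tested. Without the filter the median fasting change of all genes in LKO livers was -0.11, against -0.04 with it. Within the 3 slides the median of the 8 fasting changes in WT livers was 0.76, 0.87 and 1.02, and no called member changed sign in any comparison. For the genotype difference in fed livers the median was -0.492, -0.325 and -0.330 within slides 1, 2 and 3. Eci1 there stood at -0.93 within slide 1 and -0.53 within slide 3, so its size varied between slides.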

Other observations

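Among markers of other liver cells, several passed the test with fasting in both genotypes. Col3a1, a fibrillar collagen gene of stellate cells, fell in both genotypes, with log2 changes of -2.16 in LKO and -1.91 in WT livers (limma adjusted p = 2.7e-07 and 5.6e-06). The stellate list did not move as one: Dcn rose by 0.32 in LKO and 0.41 in WT livers. Of 10 stellate markers, 1 was higher and 5 lower with fasting in LKO, and 4 higher and 3 lower in WT livers. Camp, a neutrophil granule gene, changed by -0.55 in LKO and -0.64 in WT livers (limma adjusted p = 0.0013 and 0.00088). Of 6 neutrophil markers, 0 were higher and 2 lower with fasting in LKO, and 0 higher and 3 lower in WT livers. The other neutrophil markers did not pass the test in both genotypes. Among hepatocyte genes Tat, a tyrosine aminotransferase, rose by 0.69 in LKO and 0.90 in WT livers, and Cps1, of the urea cycle, by 0.61 in LKO and 0.78 in WT livers. Ttr went the other way, at -0.36 in LKO and -0.26 in WT livers. Of 10 hepatocyte markers, 5 were higher and 2 lower with fasting in LKO, and 3 higher and 1 lower in WT livers. Over all 17215 genes, 3959 were higher and 4595 lower in LKO, and 3983 higher and 3658 lower in WT livers. For the interaction term, 0 of 10 hepatocyte, 0 of 9 macrophage, 0 of 10 stellate, 0 of 6 cholangiocyte, 0 of 6 lymphocyte and 0 of 6 neutrophil markers passed the test in limma, against 8 of 10 endothelial markers, which does not show that the fasting changes of the other lists were alike in both genotypes. The endothelial markers passed below 0, as did 11.1% of all genes.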
